A study of Mus musculus with 3 samples.

Results

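The cytosolic ribosomal protein genes were followed through 3 plates of sorted mouse embryonic kidney cells. They were chosen by name alone: symbols that start with Rpl or Rps and a number, with Rplp0, Rplp1 and Rplp2, and without the pseudogenes named -ps and the kinases named Rps6k. The rule found 91 of the 28868 nuclear-encoded features listed in any plate. They comprised 43 proteins of the large subunit, 30 of the small subunit, 3 stalk proteins, and 15 paralogs, retrocopies or genes with a similar name. The tables of the uncultured E11.5, cultured E12.5 and cultured E11.5 plates list 89, 89 and 90 of them.

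The study traced lineages in fresh and explanted embryonic kidneys, with 1 plate of 384 wells per group. All cells came from C57BL/6 mice that carried LGR6-EGFP-IRES-CreERT2, an allele that marks cells using the Lgr6 gene with a green reporter and a tamoxifen-dependent Cre. The first plate held E11.5 kidney cells that were not cultured. The other plates held cells of kidney explants that also carried ROSA26-tdTomato, a red reporter switched on by Cre. One explant group was taken at E12.5 and cultured for 5 days. The other was taken at E11.5 and cultured for 7 days according to its title or 5 days according to its stage label. Explants grew in medium with fetal calf serum. Nothing in the labels gives the number of embryos behind a plate. With 1 plate per group, culture, the red reporter and the sequencing run, which both cultured plates shared, cannot be told apart. The uncultured and cultured E11.5 plates share the stage of collection. In comparisons with the cultured E12.5 plate that stage differs too and cannot be told apart from the rest. Wells of 1 plate are not replicates, so no p-value is given, and every interval below is a 95% interval of counting error only.

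As background, a ribosome joins a small subunit, which reads the messenger RNA, to a large subunit, which forms the peptide bond. Their proteins are made in near-equal numbers of molecules, and an unpaired protein is degraded. Ribosomal protein messages start with a terminal oligopyrimidine (TOP) tract, a run of C and T letters at the 5′ end through which mTOR signalling controls their translation. When ribosome assembly fails, free Rpl5 and Rpl11 bind Mdm2, which stabilises the transcription factor p53.

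Promoters are shown because the members' messages share this tract at the start of transcription, and because members that moved in opposite directions after culture can be set side by side. RefSeq sequences (GRCm38.p6) were matched by symbol for 66 of the 91 members. Each line gives 60 bases in the direction of transcription, 50 before the annotated start and 10 from it. Capitals mark any run of at least 8 C or T letters that begins with C. A marked run need not be the TOP tract of the message. Rpl4, at chr9:64173337-64173396 on the plus strand, was lower in the cultured plates and has a run:
Rpl4: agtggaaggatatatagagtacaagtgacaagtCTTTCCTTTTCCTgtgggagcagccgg
Rpl5, at chr5:107900478-107900537 on the plus strand, was also lower and has a run:
Rpl5: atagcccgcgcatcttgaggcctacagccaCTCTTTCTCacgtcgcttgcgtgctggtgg
Rpl23, at chr11:97782430-97782489 on the minus strand, was lower and has no such run here:
Rpl23: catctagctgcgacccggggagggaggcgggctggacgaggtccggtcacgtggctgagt
Rps27, at chr3:90213639-90213698 on the minus strand, was higher in the cultured plates and has a run:
Rps27: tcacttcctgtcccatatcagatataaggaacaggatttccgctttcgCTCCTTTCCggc
Rpl10, at chrX:74270766-74270825 on the plus strand, was higher and has no such run here:
Rpl10: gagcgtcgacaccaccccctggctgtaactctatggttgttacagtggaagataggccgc
Rps27l, the paralog of Rps27, was lower, and the first of its 2 annotated starts, at chr9:66946036-66946095 on the plus strand, has 2 runs:
Rps27l: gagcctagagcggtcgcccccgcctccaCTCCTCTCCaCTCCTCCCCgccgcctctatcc

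Runs were therefore seen among members that were higher and among members that were lower. The marked runs of Rpl4, Rpl5 and Rps27l end before the annotated start, so they lie outside the annotated message. Of those printed, only the run of Rps27 spans the start. Over the 56 subunit and stalk members with an entry, such a run lay within the 100 bases around the start on the transcribed strand in 48, or 85.7%, against 32.0% of the 27025 genes in the table. On the other strand the shares were 21.4% and 34.4%. The 6-letter words CTTTCC or CTTTTC, which overlap with such runs, occurred on the transcribed strand in the same 100 bases in 46.4% of members and 9.35% of all genes, and on the other strand in 5.36% and 8.67%. CCGGAAG, searched on both strands of the whole 300-base entry, was in 41.1% of members and 9.93% of genes. TATAAA was in 0 of the 56 members in the 50 bases before the start, read on the transcribed strand, against 3.15% of genes. The run length and the window were chosen after shorter definitions had been tried, so these shares describe the table and test nothing. A match is a string of letters, not a shown start or binding site.

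Single-cell wells were kept if they held 1000 counts or more and no more than 30% of counts were mitochondrial. They numbered 337, 200 and 300 on the uncultured, cultured E12.5 and cultured E11.5 plates. The kept wells held 4159791, 2349129 and 3210838 counts of nuclear-encoded genes, with medians per well of 6732, 9212 and 8993. A count is a tagged transcript molecule, so levels are given as CPM, counts per 1000000 counts of nuclear-encoded genes, without division by gene length. On the uncultured plate 32 wells with more than 3 times the plate's median count held 45.6% of the counts, against 15.0% in 7 wells and 10.6% in 9 wells on the cultured plates. The 384 well names recur on all plates by design. Stroma markers gave 3350 CPM in the uncultured plate and 21239 and 28289 CPM in the cultured E12.5 and E11.5 plates, all 12 with counts in each. Nephron progenitor markers gave 1490.4, 409 and 256 CPM, with Dapl1 at 0 in both E11.5 plates. Macrophage and other leukocyte markers gave 522, 377 and 1004 CPM, all 10 with counts in each. The erythroid list gave 1044, 159 and 4.67 CPM, with Ahsp without a count in all 3 plates and 7 of the 10 markers without one, globins among them, in the cultured E11.5 plate.

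Ribosomal protein genes took a larger share of the transcripts in both cultured plates than in the uncultured one. The share was 7.31% (7.28% to 7.33%) in the uncultured plate, 8.29% (8.25% to 8.32%) in the cultured E12.5 plate and 8.12% (8.09% to 8.15%) in the cultured E11.5 plate. Single wells spread far wider than these intervals: the lowest, median and highest wells were at 3.0%, 7.03% and 13.1% uncultured, 3.83%, 8.56% and 19.1% in the cultured E12.5 plate, and 1.09%, 8.15% and 21.2% in the cultured E11.5 plate. The wells of the plates therefore overlapped over most of their range. The SD over wells was 1.68, 2.48 and 2.52 percentage points, where counting alone at these depths would give 0.358, 0.318 and 0.318.

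**Figure D1:**
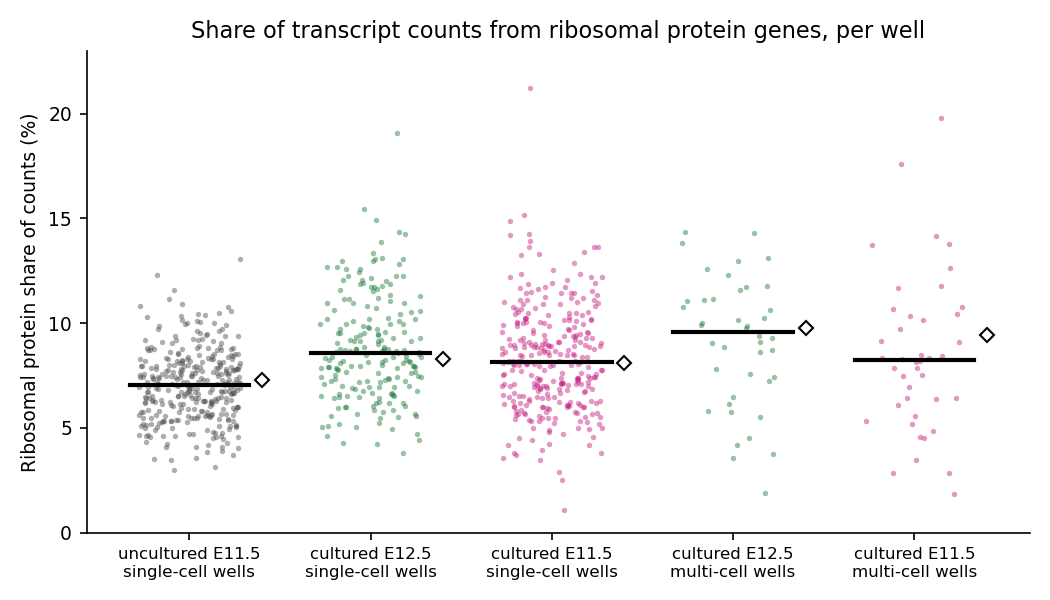
Share of transcript counts from ribosomal protein genes in each well (points, vertical axis in percent from 0), for single-cell and multi-cell wells by plate. Black lines are medians over wells and diamonds the share of the summed counts; the diamonds sit at 7.31%, 8.29% and 8.12% for single-cell wells and at 9.75% and 9.44% for multi-cell wells.

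The ratio of shares was 1.13 (1.13 to 1.14) for the cultured E12.5 over the uncultured plate and 1.11 (1.10 to 1.12) for the cultured E11.5 over the uncultured plate. Both ratios use the same uncultured plate. The size moved with the way wells were weighted: taking the mean share per well gave 1.25 and 1.18, and thinning each well to 1000 counts gave 1.26 and 1.18. The split was not within 1 subunit, since large-subunit genes took 3.63%, 4.03% and 3.90% of counts, small-subunit genes 3.16%, 3.57% and 3.57%, and the stalk 0.427%, 0.596% and 0.571% in the uncultured, cultured E12.5 and cultured E11.5 plates. Across wells the large-subunit and small-subunit shares ran together, with Spearman coefficients of 0.89 over 337 wells, 0.95 over 200 and 0.95 over 300; both shares of a well have the same total and library.

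Other quantities moved with the plates too. The median mitochondrial share was 7.28%, 3.61% and 3.49% in the uncultured, cultured E12.5 and cultured E11.5 plates. Gm42418, a transcript that overlaps ribosomal RNA, took 5.14%, 2.49% and 2.13% of counts, and leaving it out of the total gave share ratios of 1.10 and 1.08. The named pseudogenes took 0.0890%, 0.187% and 0.147%, far below the members. Their part in the result was not tested. In the 15 wells per plate labelled as controls the members' share was 6.36% of 13768 counts, 4.22% of 2940 counts and 4.97% of 2738 counts.

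Member by member, the shift was broad but uneven. In each comparison with the uncultured plate 84 of the 91 members had at least 100 counts over both sides, and the remaining 7 were too sparse. The median log2 ratio of the 84 was 0.39 for the cultured E12.5 plate, where that of all features tested was −0.12, and 0.35 for the cultured E11.5 plate, where all features stood at −0.09. Of the 84, 65 and 64 had a ratio above 1, against 43.9% and 45.3% of all features. By subunit the medians for the cultured E12.5 plate were 0.47 over 43 large-subunit genes, 0.24 over 30 small-subunit genes and 0.49 over 3 stalk genes; for the cultured E11.5 plate they were 0.37, 0.25 and 0.39.

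At least 1.5-fold higher in the cultured E11.5 than in the uncultured plate were 21 of 84 members, or 25.0%, near the 21.6% of 9640 features that were. For the cultured E12.5 plate 26 of 84, or 31.0%, were higher, against 20.7% of 9159 features. On the lower side there were 6 members, or 7.14%, against 24.1% of features for the cultured E11.5 plate, and 5 members, or 5.95%, against 25.6% for the cultured E12.5 plate. In either direction 27 and 31 members were that far apart in the cultured E11.5 and E12.5 comparisons, against 45.7% and 46.3% of features. A member was said to leave the common trend when its ratio lay at least 1.5-fold from the members' median ratio and its interval excluded that median. In the cultured E11.5 comparison 15 members did so, 6 above and 9 below, which is 17.9% of those tested against 55.3% of all features measured from the same median. In the cultured E12.5 comparison 21 did, 9 above and 12 below, or 25.0% against 57.4%. Here and below, these shares of features are measured from a median that is not their own. They therefore do not compare spread alone.

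**Figure D2:**
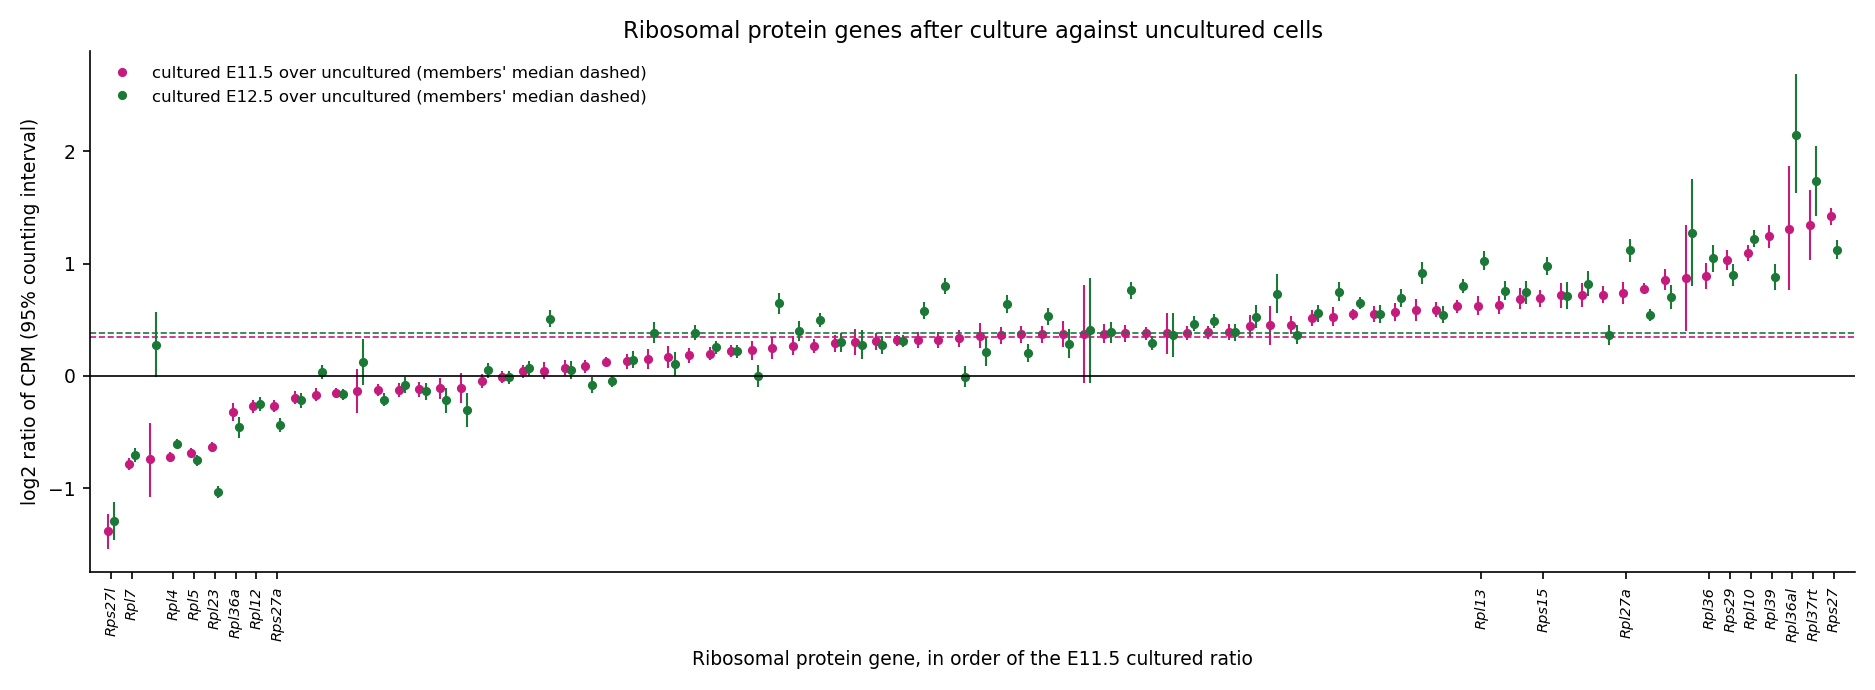
Ratio of CPM in each cultured plate over the uncultured plate for the 84 members with at least 100 counts (log2 on the vertical axis, bars are 95% counting intervals), in order of the cultured E11.5 ratio, with the 18 members of the plot of levels named on the axis. Dashed lines are the members' medians at 0.39 and 0.35; Rps27l, Rpl7, Rpl4, Rpl5 and Rpl23 lie below 0 in both comparisons, and Rps27, Rpl10, Rpl37rt and Rpl36al above 1.

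The members that stood lowest after culture included the most abundant ones. Rpl4, which lines the tunnel through which the new peptide leaves the ribosome, had the most counts of any member, at 4054 CPM uncultured, 2668 CPM in the cultured E12.5 plate and 2464 CPM in the cultured E11.5 plate. Rpl4 was thus lower in both cultured plates, at 0.658 (0.639 to 0.677) and 0.608 (0.592 to 0.624) times the uncultured level. Rpl5, which carries a small ribosomal RNA into the large subunit and binds Mdm2 when free, was at 3308 CPM uncultured, 1964 CPM and 2056 CPM. Its ratios were 0.594 (0.574 to 0.614) for the cultured E12.5 plate and 0.621 (0.603 to 0.640) for the cultured E11.5 plate.

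Rpl23, a protein at the interface with the small subunit, was at 3128 CPM uncultured, 1531 CPM in the cultured E12.5 plate and 2013 CPM in the cultured E11.5 plate. The ratios of Rpl23 were 0.489 (0.472 to 0.508) and 0.643 (0.624 to 0.663), so the 2 cultured plates differed more for this gene than for Rpl4 or Rpl5. Rpl7, another large-subunit protein, was at 2145, 1317 and 1243 CPM, with ratios of 0.614 and 0.580. Rpl4 and Rpl23 were detected in 100% of kept wells of every plate, and the well with the most counts of Rpl4 held 7.82% of them in the uncultured plate and under that in the others. Without the wells over 3 times the median count, Rpl4 had ratios of 0.697 and 0.646.

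Less far below the trend lay Rpl12, at the base of the stalk, with 1487, 1249.6 and 1233 CPM and ratios of 0.841 and 0.829. Rpl36a, a large-subunit protein encoded on the X chromosome, had 804, 585 and 643 CPM and ratios of 0.728 and 0.799. Rps27a, made as a fusion with ubiquitin, had 1752, 1294 and 1456 CPM and ratios of 0.738 and 0.831. In the cultured E12.5 comparison alone the rule also took in, among others, Rpl13a, Rpl30 and Rps6, the small-subunit protein that is phosphorylated downstream of mTOR. Rps6 stood at 1638, 1414 and 1498 CPM, with ratios of 0.864 and 0.915, and Rpl13a and Rpl30 had ratios of 0.811 and 0.859 for the cultured E12.5 plate. Their ratios for the cultured E11.5 plate were 0.928 and 0.926, below 1 as well, and whether the plates differ in these genes was not tested.

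Rps27l and Rps27, close paralogs of the small subunit, moved in opposite directions. Rps27l, which p53 is known to induce, was at 373 CPM (354 to 392) uncultured, 152 CPM (137 to 169) in the cultured E12.5 plate and 143 CPM (129.9 to 156) in the cultured E11.5 plate. Rps27 was at 513 CPM (492 to 535), 1119.6 CPM (1077 to 1163) and 1376 CPM (1336 to 1417). Rps27l was 2.44-fold lower and 2.61-fold lower in the cultured E12.5 and E11.5 plates, while Rps27 was 2.18-fold higher and 2.68-fold higher. Of the counts of the pair, Rps27l held 42.1% (40.5% to 43.7%) uncultured, 12.0% (10.8% to 13.2%) in the cultured E12.5 plate and 9.39% (8.59% to 10.2%) in the cultured E11.5 plate. The intervals of the cultured plates are far from that of the uncultured plate. Rps27l had counts in 81.0% of uncultured wells, and in 67.0% and 64.3% of the deeper wells of the cultured plates.

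Well above the trend stood Rpl10, Rpl39 and Rps29. Rpl10, an X-linked protein that joins the large subunit late in its assembly, was at 586 CPM uncultured, 1366 CPM in the cultured E12.5 plate and 1253 CPM in the cultured E11.5 plate. The ratios of Rpl10 were 2.33 (2.21 to 2.46) and 2.14 (2.03 to 2.25). Rpl39, an X-linked protein of the exit tunnel, was at 284, 522 and 673 CPM, with ratios of 1.84 (1.70 to 1.99) and 2.37 (2.20 to 2.54). Rps29, a zinc-binding protein of the small subunit, was at 389, 726 and 796 CPM, with ratios of 1.87 and 2.05. By the rule Rpl39 and Rps29 left the trend only in the cultured E11.5 comparison.

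For the cultured E12.5 plate the rule added Rpl27a, Rpl36, Rpl13 and Rps15. Rpl27a was at 349.8 CPM uncultured, 759.7 CPM and 585 CPM, with ratios of 2.17 and 1.67 for the cultured E12.5 and E11.5 plates. Rpl36 was at 255, 527 and 472 CPM, with ratios of 2.07 and 1.85. Rpl13 rounded out the large-subunit genes at 502, 1023 and 774 CPM, with ratios of 2.04 and 1.54. Rps15, near the decoding site of the small subunit, was at 579.6, 1140.2 and 936 CPM, with ratios of 1.97 and 1.62. All 4 were higher in both cultured plates, with the cultured E12.5 plate highest.

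**Figure D3:**
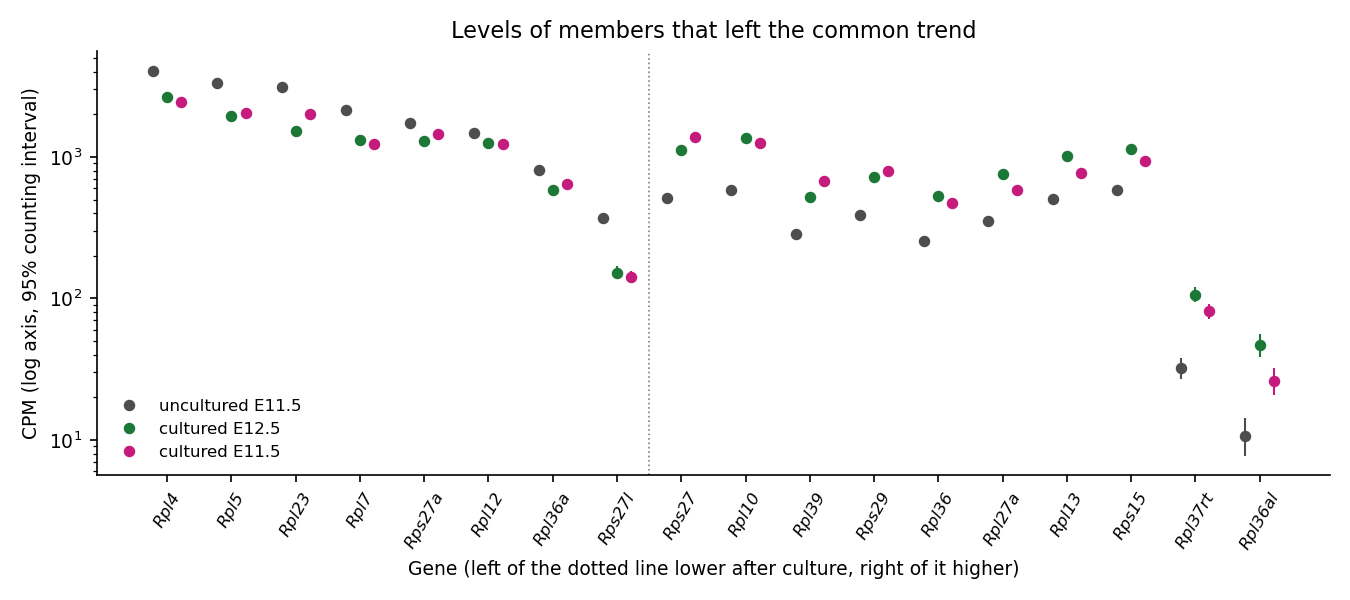
CPM (log axis, bars are 95% counting intervals) in the 3 plates for 18 members that left the common trend in a comparison with the uncultured plate. Left of the dotted line the uncultured plate is highest, as for Rpl4 at 4054 against 2668 and 2464; right of it the uncultured plate is lowest, as for Rps27 at 513 against 1119.6 and 1376.

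The order of the members by level was otherwise kept. Over the 84 members the Spearman coefficient of CPM was 0.91 between the uncultured and cultured E12.5 plates, 0.93 between the uncultured and cultured E11.5 plates, and 0.97 between the cultured plates. Rpl4, Rpl5, Rpl23 and Rps2 were among the 5 members with the most counts over all plates. Together those 5 held 20.7% of member counts uncultured, 13.5% in the cultured E12.5 plate and 14.1% in the cultured E11.5 plate. Rps2, which forms part of the entry site for messenger RNA, was at 2249.7, 2179 and 2457 CPM, with ratios of 0.969 and 1.09. Rps2 thus lay below the members' median but within 1.5-fold of it by the rule.

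The stalk, which recruits elongation factors to the large subunit, was higher in both cultured plates in all 3 of its proteins. Rplp0, its base, was at 1416 CPM uncultured, 2225 CPM in the cultured E12.5 plate and 2072 CPM in the cultured E11.5 plate, with ratios of 1.57 (1.51 to 1.63) and 1.46 (1.41 to 1.52). Rplp1 was at 1599, 1979 and 1993 CPM, with ratios of 1.24 and 1.25. Rplp2 was at 1254, 1759 and 1641 CPM, with ratios of 1.40 and 1.31. None of the 3 left the common trend.

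Of a list of members known from inherited ribosome disorders or from specialised roles, Rpl5, Rpl10, Rps6 and Rps29 left the trend in a comparison with the uncultured plate, as given above. The others of that list are given here, and none of them left it in either comparison. Rpl11, the partner of Rpl5, was at 733, 1096 and 917 CPM, with ratios of 1.49 (1.42 to 1.58) and 1.25 (1.19 to 1.32). Rpl11 was therefore higher where Rpl5 was lower. Rps19, mutated in Diamond-Blackfan anaemia, was at 632, 1071 and 821 CPM, with ratios of 1.69 and 1.30. Rps26, also a gene of that disease, was at 1233, 1514 and 1605 CPM, with ratios of 1.23 and 1.30. Rps14 had ratios of 1.74 and 1.54, and Rps25, which some viral messages need, had 1.64 and 1.65. Rpl38, whose loss in mice alters the axial skeleton, was at 528, 697 and 637 CPM, with ratios of 1.32 and 1.21. Rpl10a had ratios of 1.29 and 1.30. Rps4x, an X-linked small-subunit protein, was at 1209, 1251 and 1172 CPM, with ratios of 1.03 (0.988 to 1.08) and 0.969 (0.929 to 1.01), both of whose intervals hold 1.

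Ribosome components outside the naming rule were higher too. Rpsa, a small-subunit protein also known as a laminin receptor, was at 649 CPM uncultured, 1269 CPM in the cultured E12.5 plate and 858 CPM in the cultured E11.5 plate, with ratios of 1.95 (1.85 to 2.06) and 1.32 (1.25 to 1.39). Fau, a fusion of a ubiquitin-like protein with a small-subunit protein, was at 361, 549.7 and 469.8 CPM, with ratios of 1.52 and 1.30. Rack1, a scaffold on the small subunit, was at 1398, 1686 and 1605 CPM, with ratios of 1.21 and 1.15.

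Paralogs and retrocopies held little of the total, 0.0920%, 0.0929% and 0.0828% of counts in the uncultured, cultured E12.5 and cultured E11.5 plates. Reads of a close copy and of its parent gene may have been divided between them or discarded when counted, so their values are uncertain. Rpl36al, the autosomal paralog of Rpl36a, was at 10.6 CPM (7.69 to 14.2), 46.8 CPM (38.5 to 56.4) and 26.2 CPM (20.9 to 32.4). Its share of the pair with Rpl36a was 1.30%, 7.41% and 3.91%. Rpl37rt, a retrocopy of Rpl37, was at 32.0, 106 and 81.0 CPM and held 4.06%, 10.9% and 7.65% of its pair. Rps3a3, a copy of Rps3a1, was at 15.9, 38.3 and 29.0 CPM and held 1.11%, 2.27% and 1.72%. All 3 copies were higher in both cultured plates, beside named pseudogenes that were also higher there, and whether counting produced this was not tested.

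Among the other copies, Rps4l was lower in 1 cultured plate, and several were nearly absent. Rps4l was at 58.9 CPM uncultured, 71.5 CPM in the cultured E12.5 plate and 35.2 CPM in the cultured E11.5 plate, with ratios of 1.21 (0.992 to 1.48) and 0.597 (0.474 to 0.750), and it left the common trend in the cultured E11.5 comparison. Rpl22l1, a paralog of Rpl22, held 37.6% (35.9% to 39.3%), 40.5% (38.4% to 42.7%) and 41.0% (39.2% to 42.8%) of the counts of the pair. Rpl7l1 held 5.34%, 9.11% and 8.15% of its pair with Rpl7, at 121, 132 and 110.3 CPM, so the change in that share followed Rpl7. Rps4l held 4.65%, 5.41% and 2.91% of its pair with Rps4x. Rpl10l and Rpl39l, known from the testis, and Rpl3l, known from striated muscle, had at most 3 counts per plate. Rps19bp1, which is no ribosomal protein but a regulator that binds Rps19 and enters by its name, was at 22.1, 29.4 and 28.7 CPM.

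The cultured plates, which shared a sequencing run, were close to each other. Their ratio of shares, cultured E11.5 over cultured E12.5, was 0.979 (0.973 to 0.985), and it was 1.02 in odd and 0.940 in even plate columns, so its direction turned with the part of the plate used. The members' median log2 ratio was −0.03, and that of all features −0.01. None of 84 members was at least 1.5-fold higher in the cultured E11.5 plate, against 6.85% of features. Only 2 were lower, Rps4l at 0.492 (0.384 to 0.628) and Rpl36al at 0.559 (0.415 to 0.749), which is 2.38% against 4.74% of features. Both are paralogs of low level, at most 71.5 CPM in these plates, and both left the common trend, against 11.54% of features; in either direction 11.6% of features were at least 1.5-fold apart. Outside them the ratios ran from 0.717 for Rpl8, a large-subunit protein at 971 and 1354 CPM, to 1.31 for Rpl23.

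The share ratio and some members' ratios were also taken within subsets of wells, chosen after the values were known. In wells with an Mki67 count the share ratio was 1.07 for the cultured E12.5 plate and 1.05 for the cultured E11.5 plate, and in wells without one it was 1.28 and 1.23. In wells with at least 3 nephron progenitor markers, 39 and 34 cultured against 170 uncultured, it was 1.09 and 1.09. In macrophage and other leukocyte wells, 9 and 29 against 22, it was 1.35 and 1.27. Wells in these marker groups can also pass the stroma list, as every kept well of the cultured E11.5 plate did. Rpl4 had ratios of 0.649 and 0.641 in the progenitor wells and 0.849 and 0.697 in the macrophage wells. Rps27 had ratios of 1.97 and 2.69 in the progenitor wells and 2.17 and 2.81 in the macrophage wells. Rpl23 was at 0.499 and 0.673 in progenitor wells and at 0.543 and 0.629 in macrophage wells. Rps27l was at 0.441 and 0.216 in progenitor wells, and at 0.587 (0.390 to 0.892) in macrophage wells of the cultured E11.5 comparison, while that of the cultured E12.5 plate was too sparse. Not every member that was lower over all wells was lower in macrophage wells. Rpl12 had ratios of 1.06 (0.868 to 1.28) and 1.03 (0.873 to 1.22) there, and Rpl36a had 0.959 (0.698 to 1.31) and 1.17 (0.903 to 1.52). Over all wells both had been below 1 in both comparisons.

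Genes that build ribosomes did not follow the ribosomal proteins. Of 33 ribosome biogenesis genes, 21 were at least 1.5-fold lower in the cultured E12.5 plate and 25 in the cultured E11.5 plate, with 0 and 1 at least 1.5-fold higher, and their median log2 ratios were −0.77 and −0.91. Npm1, the abundant nucleolar protein that helps export subunits, was the lowest, at 3922 CPM uncultured, 1121 CPM in the cultured E12.5 plate and 1141 CPM in the cultured E11.5 plate. Npm1 was 3.50-fold lower and 3.44-fold lower. Ncl, a nucleolar protein of ribosomal RNA processing, was at 1168, 509 and 424 CPM. Ubtf, a factor of ribosomal RNA transcription, was the highest in the cultured E11.5 comparison at 1.61-fold, and Fbl, the methylase of small nucleolar ribonucleoproteins, in the cultured E12.5 comparison at 1.35-fold. These lists were chosen with earlier results of the data known, and their counts stand beside 25.6% and 24.1% of all features that were lower.

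Mitochondrial ribosomal proteins had medians below 0 as well, at −0.32 and −0.52 for the cultured E12.5 and E11.5 plates. Of 71, 22 and 32 were at least 1.5-fold lower, and 6 and 1 higher. Of all features 25.6% and 24.1% were that far lower, and 20.7% and 21.6% higher. The 22 of 71 for the cultured E12.5 plate are near that share. The same shares of features stand beside the lists that follow. Translation initiation factors had medians of −0.21 and −0.27 over 23 genes, with 6 and 8 lower and 1 higher in each, Eif4ebp1, the mTOR-controlled brake on cap-dependent translation, at 2.77-fold and 2.90-fold. The lowest was Eif2s1 at 0.442 and 0.403. Elongation factors and other TOP messages had medians of −0.04 and 0.02 over 21 genes, with 3 and 4 higher and 4 lower in each. The highest of those was Vim at 2.41-fold and 2.35-fold. The lowest was Snhg1 at 0.441 in the cultured E12.5 plate and Eif3l at 0.421 in the cultured E11.5 plate. The 6 of 23 initiation factors lower in the cultured E12.5 plate are near the share of all features. The TOP messages exceeded the shares of all features in neither direction.

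Among 17 genes of the mTOR pathway and Myc family the medians were −0.30 and −0.19, with 3 higher in each and 6 and 2 lower. Mycn, the Myc family member of many embryonic progenitors, was lowest, at 181 CPM uncultured, 24.3 CPM in the cultured E12.5 plate and 36.4 CPM in the cultured E11.5 plate. The highest were Sesn2 at 6.95-fold in the cultured E12.5 plate and Ddit4 at 6.08-fold in the cultured E11.5 plate, both inhibitors of mTOR signalling. Of 9 genes of the p53 response 5 were at least 1.5-fold higher in each comparison, and 2 and 1 were lower, with medians of 0.74 and 0.61. The lower genes were Trp53 in both comparisons and Mdm2 in that of the cultured E12.5 plate. Mdm2 had ratios of 0.646 (0.515 to 0.806) there and 0.890 (0.743 to 1.07) for the cultured E11.5 plate. Cdkn1a, a cell cycle inhibitor and p53 target, was at 15.1 CPM uncultured, 132 CPM in the cultured E12.5 plate and 155 CPM in the cultured E11.5 plate. Rps27l, although a p53 target as well, was lower in the same plates, and Trp53 itself was at 237, 137 and 129 CPM. Of 21 proliferation genes 17 and 19 were lower and none higher by 1.5-fold, with medians of −0.95 and −1.09. Beside these lists, 20.7% and 21.6% of all features were at least 1.5-fold higher, and 25.6% and 24.1% lower. The 3 of 17 mTOR and Myc genes higher in each comparison are near those shares.

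The 42 wells of each cultured plate that received several cells had a larger ribosomal protein share than its single-cell wells. The share was 9.75% (9.67% to 9.82%) against 8.29% in the cultured E12.5 plate, a ratio of 1.18 (1.17 to 1.19). In the cultured E11.5 plate it was 9.44% (9.37% to 9.51%) against 8.12%, a ratio of 1.16 (1.15 to 1.17). Of the multi-cell counts, 38.1% and 53.7% came from 6 and 5 wells over 3 times their median count. Without wells over 3 times the median the ratios were 1.15 and 1.13. The mean share per well gave ratios of 1.04 and 1.03, and the median per well 9.59% against 8.56% and 8.23% against 8.15%. Median depth was 10478 against 9212 counts in the cultured E12.5 plate and 7535 against 8993 in the cultured E11.5 plate, and the median mitochondrial share was 4.93% against 3.61% and 4.74% against 3.49%. Multi-cell wells also form 1 block of the plate, in rows A to G, which hold single-cell wells too. Against the single-cell wells of those rows both ratios were larger than against all kept single-cell wells, as given with the alternatives below. Position within those rows and cell number cannot be told apart.

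In summed counts the multi-cell shift was spread over the members. Of 83 members tested in the cultured E12.5 plate 80 had a ratio above 1, against 54.0% of features, and the median log2 ratio was 0.22 against 0.05 for all features. In the cultured E11.5 plate 79 of 84 were above 1, against 42.1%, with medians of 0.23 and −0.07. With the mean CPM per well, the members' medians fell to 0.06 and 0.01 on the cultured E12.5 and E11.5 plates. Those of all features were then −0.07 and −0.20. That mean gives full weight to the multi-cell wells under 1000 counts, which single-cell wells could not be. Without wells over 3 times the median count, the members' medians were 0.18 and 0.18, against 0.01 and −0.08 for all features. None of the members left the common trend in either plate, against 26.0% and 21.1% of features. Rps3a3 alone was at least 1.5-fold higher, in the cultured E11.5 plate, at 45.8 against 29.0 CPM and a ratio of 1.58 (1.00 to 2.42), which is 1.19% of members against 5.30% of features. No member was that far lower there, against 10.3% of features, or 15.6% in either direction. In the cultured E12.5 plate none was higher or lower, against 10.6% and 14.8% of features, or 25.4% in either direction. Rps4l had the lowest ratio in both plates, at 0.827 (0.565 to 1.18) and 0.763 (0.430 to 1.28), intervals that hold 1. Rpl5 was at 2531 against 1964 CPM and at 2737 against 2056 CPM, ratios of 1.29 and 1.33.

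Cycling wells, taken as those with at least 1 count of the proliferation marker Mki67, had a higher share than other wells on the uncultured plate and a lower one on both cultured plates. On the uncultured plate the share was 7.39% (7.36% to 7.41%) in 237 Mki67 wells and 6.77% (6.71% to 6.84%) in 100 others, a ratio of 1.09 (1.08 to 1.10). On the cultured E12.5 plate it was 7.88% (7.83% to 7.93%) in 69 wells and 8.67% (8.62% to 8.72%) in 131 others, a ratio of 0.909 (0.901 to 0.917). On the cultured E11.5 plate it was 7.74% (7.69% to 7.79%) in 85 wells and 8.33% (8.29% to 8.37%) in 215 others, a ratio of 0.929 (0.922 to 0.937). The difference between plates was not tested.

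Depth differs between these wells and enters the comparison. Mki67 wells had median counts of 9354 against 4855 on the uncultured plate, 12579 against 7926 on the cultured E12.5 plate and 11721 against 8320.0 on the cultured E11.5 plate. With Mki67 called after thinning all wells to 1000 counts, the uncultured ratio turned to 0.985 (98 against 239 wells), the cultured E12.5 ratio to 1.01, and the cultured E11.5 ratio was 0.915. Without wells over 3 times the median count the cultured E12.5 ratio turned to 1.02, with 1.06 and 0.949 on the uncultured and cultured E11.5 plates. Odd and even columns gave 0.836 and 0.998 on the cultured E12.5 plate. Only the cultured E11.5 plate kept its direction under every definition in the plot of Mki67 ratios.

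**Figure D4:**
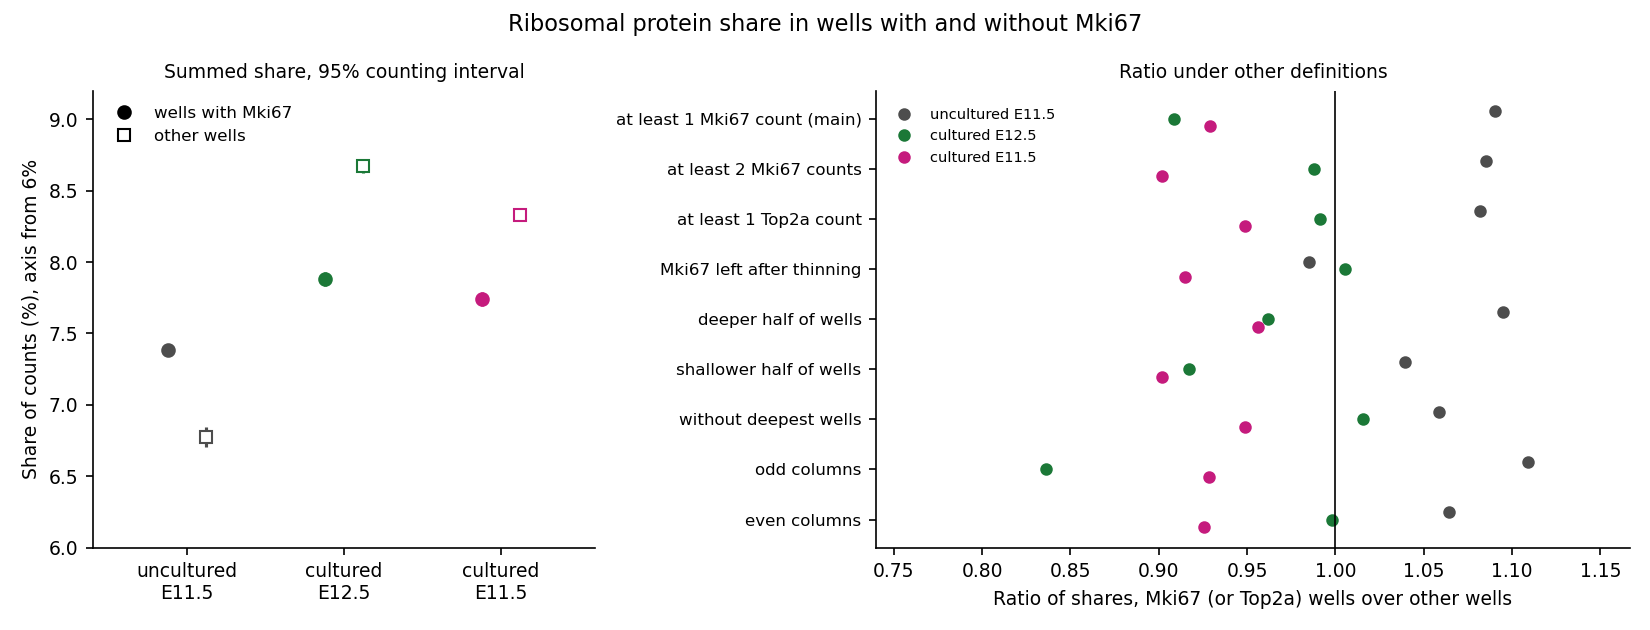
Left, ribosomal protein share of summed counts (percent, axis from 6%) in wells with Mki67 (filled) and other wells (open) on each plate, with 95% counting intervals. Right, the ratio of the shares (horizontal axis, line at 1) when cycling wells are called or chosen in other ways; uncultured values run from 0.985 to 1.11, cultured E12.5 from 0.836 to 1.02, and cultured E11.5 from 0.902 to 0.956.

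Most members had ratios on the same side of 1 between Mki67 wells and other wells. On the uncultured plate 67 of 81 tested members had a ratio above 1, against 48.7% of features, with a median log2 ratio of 0.12 against −0.01. On the cultured E12.5 plate 4 of 82 were above 1, against 48.8%, with medians of −0.15 and −0.01. On the cultured E11.5 plate 9 of 81 were above 1, against 51.3%, with medians of −0.11 and 0.01. With the deepest wells left out, those over 3 times the median, the members' median turned to 0.02 on the cultured E12.5 plate, and it was 0.07 and −0.06 on the uncultured and cultured E11.5 plates. No member left the trend on the uncultured plate, against 13.8% of features, and 1 did on each cultured plate, or 1.22% against 16.7% and 1.23% against 12.7%. At least 1.5-fold apart in either direction were 0, 0 and 1 members on the uncultured, cultured E12.5 and cultured E11.5 plates, against 15.1%, 15.0% and 12.0% of features.

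On the cultured E12.5 plate that member was Rps27l, at 179 CPM in Mki67 wells and 127 CPM in others, a ratio of 1.40 (1.13 to 1.74). Without wells over 3 times the median count its ratio was 1.44, but measured from the members' median of those wells it no longer left the trend, and Rps4l did instead, at 0.671 (0.451 to 0.984). Odd and even plate columns gave Rps27l ratios of 1.09 and 1.80. Rps27l was at 384 against 296 CPM on the uncultured plate, a ratio of 1.29 (1.10 to 1.54), and at 159 against 133 CPM on the cultured E11.5 plate, a ratio of 1.20 (0.988 to 1.45). Its ratio was therefore above 1 on all 3 plates, with an interval that holds 1 on the last. On the cultured E11.5 plate the member was Rps4l, at 49.1 against 27.3 CPM, a ratio of 1.80 (1.22 to 2.65) from 113 counts, and 1.11 and 2.65 in odd and even columns. Rps4l had ratios of 0.760 (0.537 to 1.10) and 0.941 (0.686 to 1.29) on the uncultured and cultured E12.5 plates. Rpl39 was lowest on the cultured E12.5 plate, at 444 against 597 CPM and 0.744 (0.663 to 0.835). On the uncultured plate the largest ratios included Rplp1 of the stalk, at 1655 against 1209 CPM and 1.37 (1.26 to 1.49).

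Ribosome biogenesis genes had a median log2 ratio of 0.37 over 32 genes in Mki67 wells of the uncultured plate, with 7 at least 1.5-fold higher and 0 lower, beside 7.66% of features higher and 7.48% lower. On the cultured E12.5 and E11.5 plates their medians were −0.03 over 26 genes and −0.09 over 31, with 1 higher and 1 lower on each, beside 8.24% and 6.23% of features higher and 6.73% and 5.77% lower. Ribosomal proteins and biogenesis genes thus both had medians above 0 on the uncultured plate and below 0 on the cultured plates, where that of the ribosomal proteins turned on the cultured E12.5 plate without the deepest wells.

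The share also differed among wells grouped by cell type markers, with at least 3 detected markers of a list. These groups were not exclusive. At least 3 stroma markers were detected in 296, 198 and 300 kept wells of the uncultured, cultured E12.5 and cultured E11.5 plates. A progenitor, macrophage or neural well can therefore also be a stroma well, and on the cultured E11.5 plate all were. Uncultured nephron progenitor wells, 170 in number, had 7.62% (7.59% to 7.65%) against 6.48% in the other 167, a ratio of 1.18 (1.17 to 1.18). The same list gave 1.00 (0.995 to 1.01) on the cultured E12.5 plate and 1.03 (1.01 to 1.04) on the cultured E11.5 plate. Macrophage and other leukocyte wells were lower on the uncultured plate, at 6.01% (5.89% to 6.12%) in 22 wells against 7.36%, and gave ratios of 0.977 (0.960 to 0.993) and 0.927 (0.917 to 0.938) on the cultured plates. Neural and neural crest wells gave 7.37% in 18 uncultured wells, a ratio of 1.01, and 6.36% (6.27% to 6.45%) in 14 wells of the cultured E11.5 plate, a ratio of 0.768 (0.756 to 0.780). Marker detection rises with depth. Median counts were 9841 in uncultured progenitor wells against 5429 in the others, and 6451 against 6803 for uncultured macrophage wells. They were 29900 against 6549 for uncultured neural wells and 11459 against 8838 for cultured E11.5 neural wells. With wells thinned to 1000 counts and at least 2 markers left, the progenitor ratios were 1.08, 1.39 and 1.31 on the 3 plates and the uncultured macrophage ratio 0.745; with at least 2 markers and no thinning the macrophage ratio of the cultured E12.5 plate turned to 1.08.

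**Figure D5:**
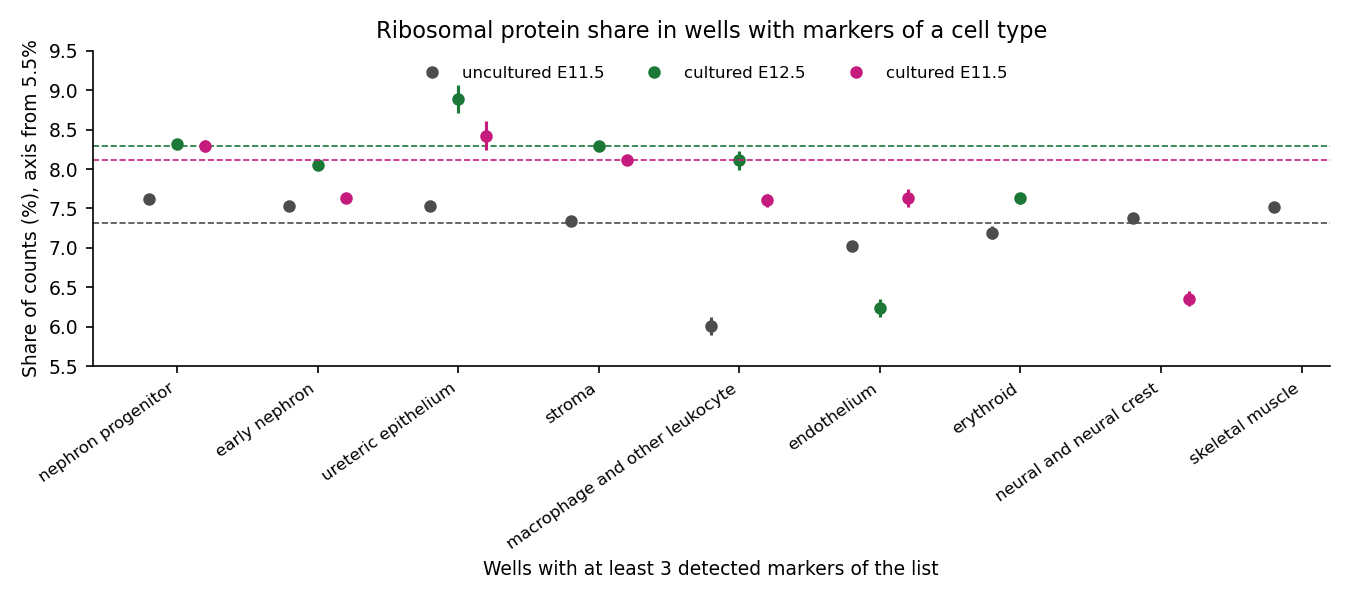
Ribosomal protein share of summed counts (percent, axis from 5.5%, bars are 95% counting intervals) in wells with at least 3 detected markers of each cell type list, by plate; dashed lines are the shares of all kept wells of a plate, at 7.31%, 8.29% and 8.12%. Groups of fewer than 5 wells are not drawn, and a well can be in several groups. Among groups of at least 10 wells, macrophage wells lie lowest on the uncultured plate at 6.01%. Neural wells do so on the cultured E11.5 plate at 6.36%.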

How the data were processed

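Single cells were sorted into 384-well plates and libraries made by SORT-seq, per the labels' protocols. Per the submitters' processing notes, STAR 2.6.1a, featureCounts 1.5.2 and the build GRCm38.p5 were used; their settings are not given in the sources used here. Expected counts per gene and well were deposited by the authors, that is, numbers of molecular identifiers corrected for repeats; 1.65%, 1.26% and 1.18% of the values above 0 were not whole in the uncultured, cultured E12.5 and cultured E11.5 plates. Whole counts had been assumed in planning; no count model was fitted, and values were rounded for intervals only. A column for reads without a known well, 4.21%, 4.27% and 4.26% of counts, was left out.

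Control wells (15 per plate) and multi-cell wells (42 per cultured plate) were set apart. In the main values neither was filtered by counts or mitochondrial share. No doublet caller was run on the sorted cells; wells over 3 times the plate median were left out as an alternative. CPM used nuclear-encoded genes without spike-ins or added sequences. Shares have exact binomial intervals, CPM exact Poisson intervals, and ratios an exact Clopper-Pearson interval from how counts divided between both sides. Features with at least 100 counts over both sides of a comparison were judged against a fold of 1.5. Alternatives covered the count minimum, fold, denominator, member set, deep wells, plate columns, weighting of wells, thinning to 1000 counts (seed 1), and the calling of cycling and marker wells. Promoters came from RefSeq (GRCm38.p6).

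Named genes were those that left the trend (at most 10 each way per comparison), the 5 most abundant, paralogs, a list of well-known members, components outside the naming rule, and the highest and lowest gene of each other list. Members beyond the rule, such as Rpl8 and Ncl, were named after their values were seen. Some items that the rule names are not reported here. The members and all lists were chosen with earlier results of these data known. Scripts were tested on simulated data. Scripts ran under Python 3.11.15 with matplotlib 3.10.9, pandas 2.3.3, scipy 1.17.1 and numpy 2.4.6.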

Additional observations from a re-analysis of the deposited data

Results flagged for a closer look

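The ribosomal protein share differed in opposite directions between cycling and other wells: the ratio of Mki67 wells to other wells was 1.09 on the uncultured plate, where the share was higher in Mki67 wells, and 0.909 and 0.929 on the cultured E12.5 and E11.5 plates, where it was lower. The difference between the plates was not tested, because there is 1 plate per group, and the uncultured and cultured E12.5 directions turned under definitions given with the result.

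Wells labelled as controls, which no comparison used, held member counts of 876 on the uncultured plate, 124 on the cultured E12.5 plate and 136 on the cultured E11.5 plate, above the 3 counts that a count of 0 allows. On the uncultured plate 7 of the 15 control wells had at least 1000 counts, on the cultured plates 0.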

How the results depend on the processing

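No paired analysis was possible because each group is 1 plate. Over the main results 171 alternative values stayed within the counting interval or within 1.5 times a count, 143 moved and 5 turned direction; among the named members' ratios 165 stayed, 75 moved and 0 turned. Shares and ratios follow in the order given first, and causes were not tested.

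Shares of the uncultured, cultured E12.5 and cultured E11.5 plates were 6.78%, 7.97% and 7.81% of all counts including mitochondrial genes, 7.71%, 8.50% and 8.29% without Gm42418 in the total, 7.22%, 8.20% and 8.03% without paralogs and near-named symbols, 7.55%, 8.64% and 8.41% with Rpsa, Fau, Rack1 and another component outside the naming rule, and 7.08%, 8.61% and 8.26% without wells over 3 times the median count. The mean over wells gave 7.05%, 8.81% and 8.29%, the median 7.03%, 8.56% and 8.15%, and thinning to 1000 counts 6.97%, 8.77% and 8.23%. Odd columns gave 7.80% and 7.95% for the cultured plates and even columns 8.83% and 8.30%.

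The cultured E12.5 and E11.5 ratios to the uncultured plate were 1.18 and 1.15 with mitochondrial genes, 1.10 and 1.08 without Gm42418, 1.22 and 1.17 without deep wells, 1.25 and 1.18 by the mean, 1.22 and 1.16 by the median, 1.26 and 1.18 after thinning, 1.07 and 1.09 in odd columns, and 1.21 and 1.13 in even columns; the added components gave 1.14 for the E12.5 plate. The ratio of the cultured E11.5 to the cultured E12.5 plate was 0.973 with the added components, 0.959 without deep wells, 0.941 by the mean, 0.953 by the median, 0.939 after thinning, 0.940 in even columns, and turned to 1.02 in odd columns.

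Multi-cell ratios on the cultured E12.5 and E11.5 plates were 1.15 and 1.13 without deep wells, 1.04 and 1.03 by the mean, 1.12 and 1.01 by the median, 1.08 and 1.07 after thinning, and 1.30 and 1.19 against single-cell wells of rows A to G; counting mitochondrial genes gave 1.16 on the E12.5 plate. Leaving out multi-cell wells under 1000 counts, an alternative chosen after seeing the data, gave 1.18 and 1.16.

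Mki67 ratios on the uncultured, cultured E12.5 and cultured E11.5 plates were 1.06, 1.02 and 0.949 without deep wells, 1.13, 0.938 and 0.913 by the median, 0.985, 1.01 and 0.915 with Mki67 called after thinning, and 1.04, 0.917 and 0.902 in wells up to the median count. The mean gave 1.07 and 0.933 on the uncultured and cultured E12.5 plates, odd columns 1.11 and 0.836, and even columns 1.06 and 0.998. On the cultured E12.5 and E11.5 plates at least 2 Mki67 counts gave 0.988 and 0.902, a Top2a count 0.991 and 0.949, and wells above the median count 0.962 and 0.956; thinning alone gave 0.895 on the E12.5 plate.

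With at least 2 detected markers, the progenitor ratios on the 3 plates were 1.15, 0.955 and 1.01, the macrophage ratios 0.964, 1.08 (turned) and 0.992, the neural ratios 1.07 uncultured and 0.917 cultured E11.5, and the early nephron ratios 1.06 uncultured and 0.982 cultured E11.5. After thinning they were 1.08, 1.39 and 1.31 for progenitor wells, 0.745 uncultured and 0.869 cultured E11.5 for macrophage wells, 0.651 cultured E11.5 for neural wells, and 1.02 uncultured and 0.921 cultured E12.5 for early nephron wells. Only 4 of the 9 marker lists were carried through these settings, chosen after their values were seen.

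At 2-fold the members leaving the trend numbered 6 in each comparison with the uncultured plate, and those apart 10 for the cultured E12.5 and 7 for the cultured E11.5 plate. Between the cultured plates 0 left and 1 was apart at 2-fold, 0 and 0 at a minimum of 300 counts, 1 and 1 in odd columns, and 0 left in even columns, while 4 were apart with no minimum. For multi-cell wells the cultured E12.5 count apart was 2 with no minimum, 1 without deep wells, 1 against genes outside the members and 1 by mean CPM per well, which left 1 off the trend. For multi-cell wells of the cultured E11.5 plate the count apart was 0 at 300 counts, 5 with no minimum, 0 at 2-fold and 3 by mean CPM, which left 3 off the trend. For Mki67 wells of the uncultured plate 1 left and 1 was apart at 30 counts, 1 left and 5 were apart with no minimum, and 1 left and 1 was apart by mean CPM. On the cultured E12.5 plate 0 left at 2-fold and in odd columns, and 3, 1 and 1 were apart with no minimum, by mean CPM and in even columns. On the cultured E11.5 plate both counts were 0 at 300 counts, at 2-fold and in odd and even columns, and 6 were apart with no minimum.

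Depth limits the paralogs most: Rpl36al, Rps3a3 and Rps4l rest on at most 245 counts per plate, and 7 members were too sparse to judge. Intervals cover counting error; the spread between plates of a group is unknown.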
